A study of Mus musculus with 12 samples.

Results

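The regions described here are the 7304 of 117835 accessible chromatin regions (6.20%) whose identifiers carry peak calls from both groups of monocyte-derived macrophages (MDM) and none from either group of microglia. They were chosen by the peak names inside each merged region's identifier. The identifiers give no peak score, so how far a region lay from the calling threshold cannot be read from them. ATAC-seq, in which the Tn5 transposase cuts and tags open chromatin, had been run on nuclei of FACS-sorted cells. They came from brain tumours of mice with the genotype Ink4a/ArfKO, PDGFB, a glioma model in which Nestin-positive progenitors without the Ink4a/Arf locus are made to express the growth factor PDGFB. All 4 groups carry this genotype and no treatment or age is given. The groups are MDM, lipid-laden MDM (LL-MDM), microglia (MG) and lipid-laden microglia (LL-MG), with 3 libraries each. Groups were taken from the column names of the count table, which equal the sample descriptions. The sample titles name the same group for 4 libraries and another group for 8, so every direction below holds for the libraries as the columns name them. The titles also give 3 mouse numbers, but since they name another group than the columns for most libraries, no library was tied to a mouse, and p-values measure only the spread between these libraries.

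Blood monocytes enter brain tumours and become macrophages there, whereas microglia settle in the brain before birth and renew themselves. Both cell types take up lipid debris such as myelin, and cells that store it are called lipid-laden or foamy. The identity of each type is held by distal enhancers, short stretches of open chromatin bound by PU.1 together with factors such as C/EBP, AP-1, RUNX and IRF proteins, while promoters tend to be open in both.

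Total counts ran from 1162969 (LL-MDM 1) to 18938222 (MDM 2), so that a level of 1 in CPM, counts scaled to a common library total, is about 1 read in the smallest library. Over all regions at 20 monocyte-derived identity genes, of which Ly6c1 and Chil3 had no region, the summed CPM was 845 to 1120 in the 6 libraries named MDM or LL-MDM and 533 to 749 in the other 6. At 20 microglia identity genes it was 1306 to 1542 and 1556 to 2119. Neither list overlapped between the lineages as the columns name them. Marker loci of other cell types carried signal in every library, and where they move with a result the values stand beside it.

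A small share of the regions lay at promoters. Of 7094 regions on chromosomes for which the table of RefSeq starts (GRCm38.p6, the assembly behind mm10) has entries, 193 (2.72%) overlapped a window from 250 bases before to 50 after an annotated start, against 9.85% over the whole series and 26.7% of the regions called in all 4 groups. The table holds a window for 79.9% of protein-coding genes, so these shares are lower limits. The 250 bases before the start are shown for 4 genes, picked after their values were seen because they stand for the patterns described below: Mefv, which encodes pyrin, was high in both MDM groups and near the floor in microglia, Sbno2, a target of interleukin-10 signalling, was higher in LL-MDM, Adam19, a membrane-bound metalloprotease, was lower in LL-MDM, and S100a8, a subunit of calprotectin, was higher in LL-MDM with a difference between lineages. Capitals mark matches on either strand to PU.1 (GAGGAAGT), C/EBP (TTNNGNAA), RUNX (TGTGGT), AP-1 (TGANTCA), an ETS core (CCGGAAGT) or the tandem IRF motif.

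Mefv, chr16:3718125-3718374, minus strand: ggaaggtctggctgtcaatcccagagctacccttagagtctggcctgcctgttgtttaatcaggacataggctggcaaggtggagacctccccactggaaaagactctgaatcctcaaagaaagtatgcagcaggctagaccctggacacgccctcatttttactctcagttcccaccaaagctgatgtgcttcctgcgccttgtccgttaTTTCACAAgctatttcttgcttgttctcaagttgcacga

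Sbno2, chr10:80101188-80101437, minus strand: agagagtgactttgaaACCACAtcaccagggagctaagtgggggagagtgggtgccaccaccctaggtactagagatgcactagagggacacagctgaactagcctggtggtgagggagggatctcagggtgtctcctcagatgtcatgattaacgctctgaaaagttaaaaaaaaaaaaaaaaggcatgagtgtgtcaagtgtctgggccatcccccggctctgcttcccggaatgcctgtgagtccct

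Adam19, chr11:46127654-46127903, plus strand: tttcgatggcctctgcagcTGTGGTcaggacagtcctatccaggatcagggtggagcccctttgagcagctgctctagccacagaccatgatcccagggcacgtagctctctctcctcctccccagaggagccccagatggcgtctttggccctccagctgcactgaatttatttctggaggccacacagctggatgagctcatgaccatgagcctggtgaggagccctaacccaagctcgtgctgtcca

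S100a8, chr3:90668821-90669070, plus strand: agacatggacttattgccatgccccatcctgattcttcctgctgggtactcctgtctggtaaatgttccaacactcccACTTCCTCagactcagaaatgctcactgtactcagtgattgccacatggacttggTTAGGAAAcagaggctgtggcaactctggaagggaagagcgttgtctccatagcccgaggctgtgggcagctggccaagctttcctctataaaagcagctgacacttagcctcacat

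The accessible region covered 170 of the 250 bases shown for Mefv, 225 for Sbno2, 250 for Adam19 and 189 for S100a8. Mefv and S100a8 each held 1 C/EBP match, S100a8 also 1 PU.1 match, and Sbno2 and Adam19 1 RUNX match each. The Sbno2 match lies outside the accessible region, which ends at 80101412, and the others lie within theirs. At the Mefv promoter the level was 9.70, 9.35 and 11.8 CPM in MDM and 16.1, 9.05 and 16.0 in LL-MDM, against 0.709, 0.164 and 0.466 in MG and 0, 0.899 and 0.694 in LL-MG. The MDM and LL-MDM values overlap (log2 difference 0.32, SE 0.24, adjusted p = 0.337). The promoter of F10, coagulation factor X, which phagocytes also make, stood at 12.9, 13.4 and 20.1 CPM in MDM, 21.2, 19.7 and 24.5 in LL-MDM, 1.77, 6.23 and 3.26 in MG and 3.89, 3.15 and 1.73 in LL-MG. Its 2 MDM groups overlap as well (log2 difference 0.52, SE 0.23, adjusted p = 0.0871). No match to the motifs above lies in the 250 bases before its start.

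Across the 213 windows of 198 genes that these regions overlap, the median GC content was 53.3% with 8 CpG dinucleotides. All 32851 windows had 52.7% and 7, and the 10907 windows at regions called in all 4 groups had 62.0% and 22. The PU.1 letters occurred in 7.51% of the 213 windows, in 3.20% of all windows and in 3.5% of windows at regions called in all 4 groups. The IRF letters occurred in 8.45%, 3.44% and 2.82%, and those of AP-1 in 9.86%, 7.81% and 5.08%. C/EBP letters were found in 42.7%, 40.7% and 29.4%, RUNX letters in 18.3%, 16.8% and 12.0%, and the GC-rich KLF/SP letters (GGGNGGGG) in 32.4%, 33.2% and 50.005%. In the 1113 windows at regions called in MDM only, the shares were 5.30% for PU.1, 4.04% for IRF and 8.81% for AP-1. They were 37.7% for C/EBP, 19.2% for RUNX and 39.9% for KLF/SP. The 213 windows thus held the PU.1 and IRF letters in a larger share than all windows, by description and with no test. The windows at regions called in MDM only did so too, by less.

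The regions were somewhat wider than the whole series, and few overlapped a promoter window at similar width. Their median width was 200 bp (quartiles 149 to 275), against 179 bp over the whole series. It was 119 bp for the 44574 regions called in MDM only, 161 bp for the 2305 called in both microglia groups only and 388 bp for the 32545 called in all 4 groups. Among regions of 150 to 300 bp alone, 2.44% overlapped a promoter window, against 2.22% of those called in MDM only, 5.89% of those called in both microglia groups only and 7.09% of those called in all 4. Protein-coding genes contained 51.5% of the regions, and 15.2% lay over 50 kb from any such gene. Exons, introns and UTRs were not told apart here. Another region of the set lay within 10 kb for 21.9%.

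The level of each region in the 4 groups is what the rule selected on, through the peak calls, and is given as a description. The median region had 3.63, 3.69 and 3.43 CPM in the MDM libraries, 3.39, 3.59 and 4.25 in LL-MDM, 1.77, 1.64 and 1.63 in MG and 1.73, 1.80 and 1.73 in LL-MG. Whether the lack of a call in microglia depends on depth was not tested. The microglia libraries held 2150072 to 6872724 counts and the MDM libraries without lipid load 6341183 to 18938222. The LL-MDM libraries, whose group also had to carry a call, held 1162969 to 7390521. Of the 7304 regions, 5686 (77.8%) had a mean of at least 1 CPM over the 6 microglia libraries, and 1 region was at 0 in all 6. The median ratio of the MDM to the microglia mean was 2.10 (quartiles 1.33 to 3.69). A ratio of at least 4 was reached by 1630 regions (22.3%), and 771 (10.6%) had a ratio under 1. In 2422 regions (33.2%) all 6 MDM libraries exceeded all 6 microglia libraries, which held for 6.78% of all regions, and in 6 regions the order was the opposite. In bulk chromatin of sorted cells, a smaller share of cells with an open site and less opening per cell cannot be told apart. Just outside the rule lie the regions called in MDM only, whose median was 1.63 to 1.95 CPM in MDM and 0.846 to 1.33 in LL-MDM, as the plot of levels by library shows.

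**Figure D1:**
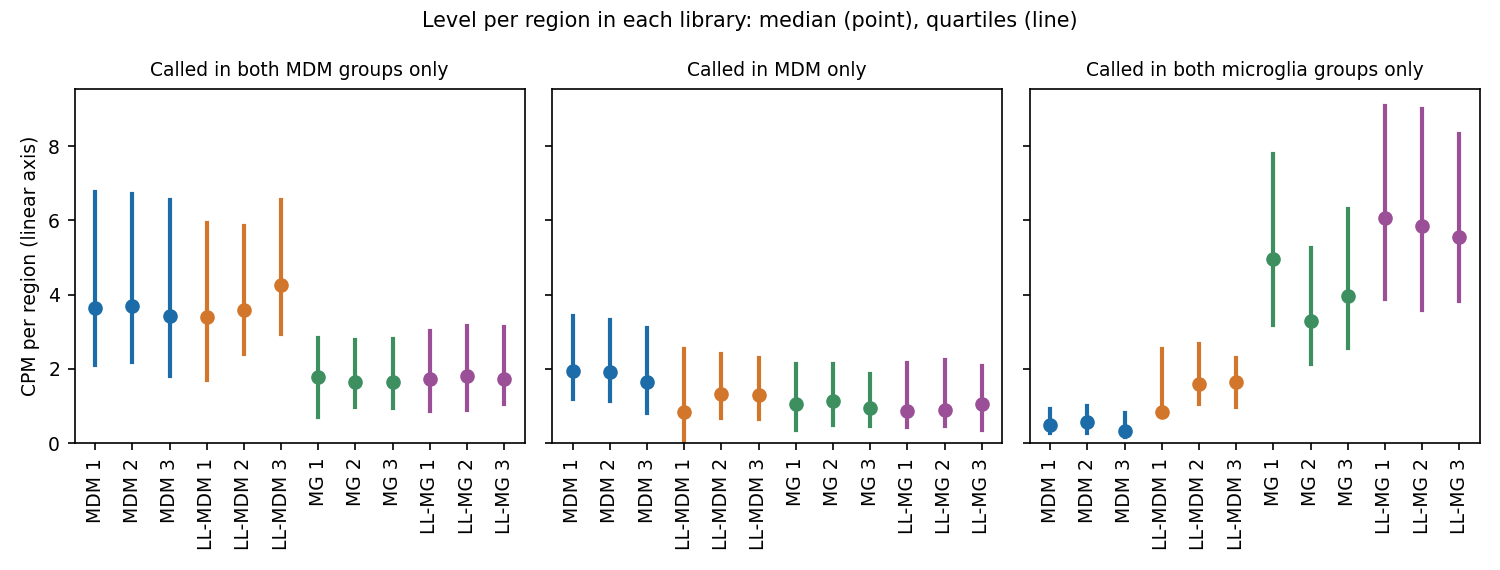
CPM per region in each of the 12 libraries for 3 sets of regions, grouped by which groups' peaks name them; points are medians over regions, lines run from the lower to the upper quartile, and colours mark the group. The regions called in both MDM groups only have medians of 3.39 to 4.25 CPM in the 6 MDM and LL-MDM libraries and 1.63 to 1.80 CPM in the 6 microglia libraries.

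The low-count filter was passed by 5509 regions (75.4%), and 1795 were not tested. In the fit, 3528 of the 5509 were lower in MG than in MDM and 120 were higher, where 51.7% of all tested regions were called in either direction, 24.9% lower and 26.8% higher. In the lipid-laden groups 2620 were lower in LL-MG than in LL-MDM and 7 higher, where 21.5% of all were called, 11.2% lower and 10.3% higher. The rule used these contrasts, and nothing is read from the counts. The 120 regions higher in MG were narrow, with a median width of 138 bp. Their median level was 2.124 to 2.39 CPM in MDM, 4.23 to 4.91 in LL-MDM and 4.55 to 4.61 in MG.

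The highest levels were reached at single distal elements. The region with the highest mean over the 6 MDM and LL-MDM libraries, chr17:29435427-29435859, lies 54926 bp from the nearest protein-coding gene. It had 59.1, 54.3 and 58.2 CPM in MDM, 42.3, 37.9 and 35.3 in LL-MDM, 3.90, 2.46 and 5.83 in MG and 3.46, 4.49 and 3.82 in LL-MG. The LL-MDM libraries all lie below the MDM libraries there (log2 difference -0.59, SE 0.14, adjusted p = 0.00207). Second came a region in the span of Alpk2, an alpha-kinase gene (chr18:65304677-65305295), with 56.1, 60.6 and 71.2 CPM in MDM and 25.4, 29.4 and 27.5 in LL-MDM. Its microglia levels were 3.77 to 5.31 CPM in MG and 2.59 to 3.15 in LL-MG, and it was 2.23-fold lower in LL-MDM than in MDM (adjusted p = 1.93e-07).

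Among the same 12 regions of highest level, those at Cd83, a surface marker of activated antigen-presenting cells, and at Ehd1, which acts in endocytic recycling, did not differ between the MDM groups beyond the spread. The Cd83 region, 10528 bp outside the gene (chr13:43774138-43774584), had 40.4, 38.4 and 44.3 CPM in MDM and 36.4, 38.9 and 43.2 in LL-MDM, against 2.95 to 6.73 in MG and 4.32 to 6.94 in LL-MG. The Ehd1 region (chr19:6293308-6293666) had 38.5, 41.2 and 42.6 CPM in MDM and 41.5, 51.2 and 46.8 in LL-MDM. It was open in microglia too, at 9.79 to 15.4 CPM in MG and 18.4 to 20.7 in LL-MG, a 1.52-fold difference (adjusted p = 0.0297). The Rara region, in the gene of the retinoic acid receptor alpha, had 35.0, 36.5 and 51.1 CPM in MDM, 31.3, 31.9 and 33.0 in LL-MDM, 8.50 to 12.6 in MG and 13.8 to 18 in LL-MG. Its MDM difference did not pass (log2 -0.33, adjusted p = 0.115). The region at Gpr132, a receptor for oxidised fatty acids and lactate, fell from 44.7, 40.8 and 45.3 CPM in MDM to 18.6, 21.0 and 20.6 in LL-MDM (log2 -1.09, SE 0.17, adjusted p = 1.39e-05). The region 38319 bp from Chd7, a chromatin remodeller, fell from 39.9, 41.0 and 50.8 CPM to 25.4, 22.4 and 25.8, while in microglia it went from 6.38, 4.42 and 5.13 in MG to 10.8, 8.09 and 9.02 in LL-MG (adjusted p = 0.0233).

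The ratio between lineages ran from strongly MDM-sided to the reverse. Among regions with a mean of at least 10 CPM over the 6 MDM and LL-MDM libraries, microglia were lowest relative to MDM at a region 20967 bp from Lrrk2, a kinase gene linked to Parkinson's disease and active in myeloid cells, with 18.6, 17.2 and 18.5 CPM in MDM and at most 0.899 CPM in any microglia library. A region in St8sia4, a polysialyltransferase gene, had 17.8, 15.1 and 16.2 CPM in MDM, 5.92, 8.91 and 6.87 in LL-MDM and at most 0.899 in microglia. At the other end, a 109 bp region in Plpp1, a lipid phosphate phosphatase gene, had 2.51, 1.71 and 2.29 CPM in MDM, 2.54, 3.06 and 4.25 in LL-MDM, but 7.44, 4.26 and 7.70 in MG and 10.8, 5.39 and 6.24 in LL-MG. All 6 microglia libraries exceeded all 6 MDM and LL-MDM libraries there.

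Several genes held many of these regions. A gene, taken as the span a region lies in or the nearest within 50 kb, could be named for 6192 regions and 4023 genes. Of these genes 2770 had 1 region, 477 at least 3 and 109 at least 5. A region called in all 4 groups also had the same name for 3309 (82.3%) of the 4023. A region called in both microglia groups only had it for 523 genes, which is 13% of the 4023 and 35.1% of the 1488 genes with such a microglia region. At Zfhx3, a large transcription factor gene, the 4 regions summed to 11.9 ± 1.46 CPM in MDM and 8.05 ± 1.04 in MG (SD, n = 3). The 7 regions called in both microglia groups summed to 4.74 ± 0.983 and 47.7 ± 7.52 CPM there.

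Pde4d, which encodes a cyclic AMP phosphodiesterase, had the most regions, 15 named for a gene of 1302 kb. They summed to 94.9 ± 6.10 CPM in MDM (SD, n = 3), 80.0 ± 8.49 in LL-MDM, 17.7 ± 2.31 in MG and 17.4 ± 3.87 in LL-MG. Creb5, a CREB family transcription factor gene, had 14 (84.7 ± 3.61 CPM in MDM and 27.3 ± 2.26 in MG), Myo16 12, and Foxp1, a forkhead factor of monocyte differentiation, 11 (61.8 ± 5.41 and 15.9 ± 3.20 CPM). Gda, guanine deaminase, a gene of 81.4 kb, had no region called in all 4 groups and 10 regions of the set. They summed to 72.7 ± 1.5 CPM in MDM, 55.3 ± 1.18 in LL-MDM, 9.42 ± 0.462 in MG and 7.39 ± 4.12 in LL-MG. Vav3, a signalling gene of phagocytosis, also had 10, which summed to 104, 108 and 113 CPM in MDM and 44.9, 54.3 and 57.9 in LL-MDM, so that these groups do not overlap.

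**Figure D2:**
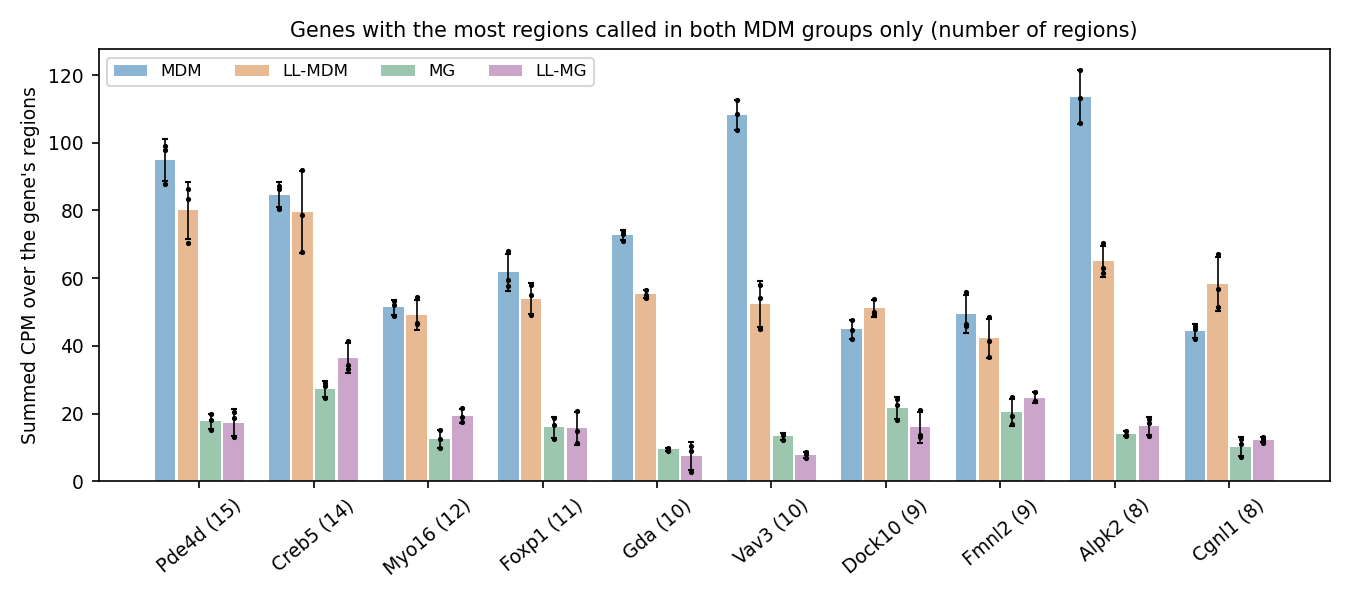
Summed CPM over the regions called in both MDM groups only at the 10 genes that hold most of them, with the number of regions in brackets; bars are group means, error bars SD over 3 libraries and points the libraries. Vav3 has means of 108 CPM in MDM and 52.3 in LL-MDM, Cgnl1 44.4 and 58.4, and the libraries of Myo16 overlap between these groups.

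Lipid-laden and other MDM were compared next. Of the 5509 tested regions 1682 (30.5%) differed between LL-MDM and MDM, against 29.5% of all tested regions. Higher in LL-MDM were 746 (13.5%, against 15.4% of all), of which 465 by at least 2-fold (9.17% of all regions), and lower were 936 (17%, against 14.1% of all), of which 564 by at least 2-fold (8.62% of all regions). The median log2 difference was -0.01 over the tested regions and 0.01 over all. The share of changed regions is thus near the background. The rule asks for a call in both MDM groups, so regions open in only 1 of them are not in the set. All reads in the 7304 regions made up 3.90%, 3.91% and 3.64% of counts in MDM and 3.48%, 3.52% and 3.88% in LL-MDM, a difference of -0.189 percentage points (exact two-sided permutation test, p = 0.2, the smallest possible being 0.1).

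The count of called regions depended on single libraries, as did the share called over all tested regions, given in brackets. The count was 798 without LL-MDM 2 (15.4%), 1073 without MDM 2 (21.5%) and 1114 without MDM 1 (20.6%). It was 1027 with DESeq2 (21.1%) and 2612 in a fit of the 2 groups alone (36.6%), where 7006 instead of 5509 were tested. When all libraries were thinned to the smallest total it was 0 (0.176%). There 1359 regions were tested and 135 had an unadjusted p under 0.05. Scaled on the regions named in all 4 groups, 590 were higher and 1105 lower (30.1%). In the fit of the 2 groups alone 1435 were higher and 1177 lower, and with no low-count filter 883 and 867 (22.6%). Whether falls outnumber rises thus depended on the fit.

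Both directions differed in level and width. The 936 lower regions had a median width of 327 bp and median levels of 10.0 to 10.4 CPM in MDM and 4.23 to 4.58 in LL-MDM. The 746 higher regions were narrower, at 188 bp, and went from 2.60 to 2.65 CPM in MDM to 5.72 to 6.54 in LL-MDM. In the microglia libraries both sets were low, at 1.35 to 1.80 CPM for the lower and 1.80 to 2.59 for the higher. The 3827 regions that were not called had 4.25 to 4.57 CPM in MDM and 4.23 to 4.91 in LL-MDM. Since calls need reads, these medians describe the called sets only.

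**Figure D3:**
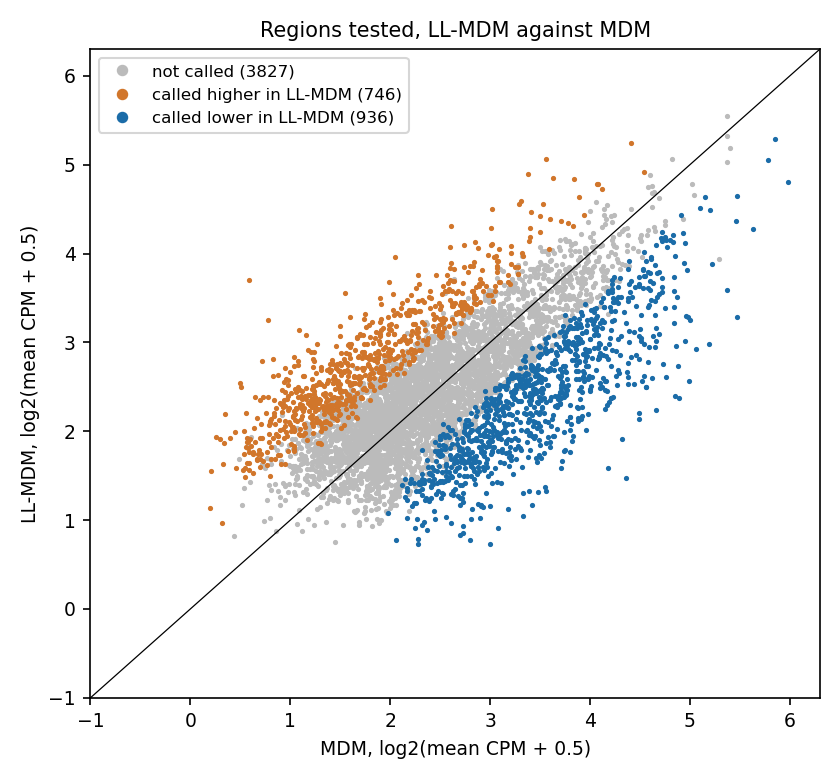
Mean level of each tested region in MDM (x axis) and LL-MDM (y axis) on a log2(mean CPM + 0.5) scale; each point is 1 of 5509 regions, the line marks equal levels and colours mark the edgeR call. Regions called lower in LL-MDM (936) reach higher MDM levels than those called higher (746).

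The region with the largest rise in LL-MDM among those named lies in Arhgap15, a Rac GTPase-activating protein gene (chr2:44274557-44274995). It had 1.54, 1.14 and 0.327 CPM in MDM and 11.8, 13.2 and 12.4 in LL-MDM, an 11.0-fold difference (log2 3.46, SE 0.30, adjusted p = 4.52e-10). In microglia it stayed between 0.354 and 1.04 CPM in both groups. A region 6295 bp from Fabp5, a fatty acid binding protein that carries lipids inside macrophages (chr3:10022905-10023196), had 2.37, 2.28 and 2.61 CPM in MDM and 8.46, 11.6 and 13.7 in LL-MDM. That is 4.88-fold (log2 2.29, SE 0.26, adjusted p = 5.45e-08). It also rose in microglia, from 5.31, 2.78 and 5.13 CPM to 9.08, 6.74 and 8.67 (1.95-fold, adjusted p = 0.0337).

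The Itga9 region, in the gene of the integrin alpha-9 subunit (chr9:118658667-118659046), was the most open of the 8 risen regions named here. It had 10.1, 11.8 and 11.9 CPM in MDM and 33.9, 28.6 and 36.3 in LL-MDM (2.89-fold, adjusted p = 4.11e-07), against 0.709, 2.13 and 0.70 in MG and 2.16, 4.04 and 3.47 in LL-MG. In Sash1, a scaffold protein gene, the level went from 5.38, 4.47 and 7.02 to 22.0, 16.9 and 19.0 CPM (3.43-fold). Near Wee1, a cell cycle kinase gene, it went from 2.09, 1.61 and 1.47 to 6.77, 7.58 and 9.49 CPM (4.55-fold). The regions at Serpina12, Gdpd1 and Mapre2 rose 6.39-fold, 5.26-fold and 5.08-fold from means of 1.22, 1.27 and 1.63 CPM.

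**Figure D4:**
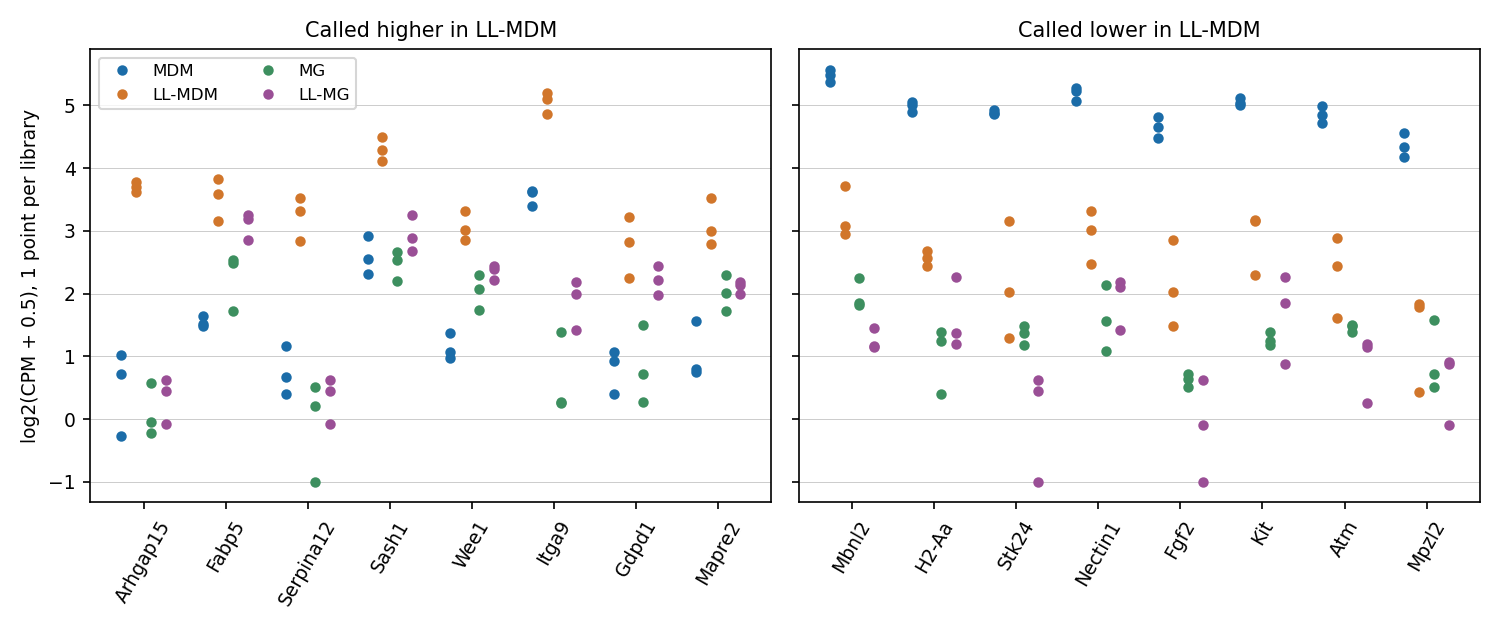
Level of the 8 regions with the smallest p among those higher (left) and lower (right) in LL-MDM by at least 2-fold with no overlap of the groups; each point is 1 library on a log2(CPM + 0.5) scale and colours mark the group. The choice of regions fixes that the LL-MDM and MDM points do not overlap, while the MG and LL-MG points were not used for it.

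The 8 named regions that fell include 1 near H2-Aa and 1 in Kit. A region 3788 bp from H2-Aa, which encodes the alpha chain of a major histocompatibility complex class II molecule (chr17:34278463-34278956), had 32.7, 31.6 and 29.4 CPM in MDM and 5.92, 5.46 and 4.91 in LL-MDM. That is 5.83-fold lower (log2 -2.54, SE 0.22, adjusted p = 6.79e-10), and its microglia levels were 0.819 to 2.13 CPM in MG and 1.80 to 4.32 in LL-MG. A region in Kit, the stem cell factor receptor of mast cells and progenitors (chr5:75640424-75641051), had 32.3, 31.8 and 34.3 CPM in MDM and 8.46, 4.39 and 8.50 in LL-MDM (5.23-fold lower, adjusted p = 3.63e-09). The region 21452 bp from Mbnl2, a splicing regulator, fell from 44.3, 40.7 and 46.9 to 12.7, 7.98 and 7.20 CPM (5.18-fold). In Fgf2, a growth factor gene, the level fell from 21.9, 27.6 and 24.8 to 6.77, 3.59 and 2.29 CPM (6.82-fold), and in Nectin1, an adhesion molecule gene, from 36.9, 33.0 and 38.2 to 5.08, 7.58 and 9.49 (4.59-fold). Regions near Stk24, Atm and Mpzl2 were 7.76-fold, 4.98-fold and 7.21-fold lower.

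Marker loci of other cells differed between the same libraries. Over all regions at 14 dendritic cell markers the summed CPM was 1177 to 1267 in MDM and 897 to 908 in LL-MDM. At 8 mast cell and basophil markers, of which Fcer1a had no region, it was 232 to 241 and 142 to 165, and at 20 microglia identity genes 1306 to 1376 and 1477 to 1542. At 20 monocyte-derived identity genes, with no region at Ly6c1 or Chil3, it was 1052 to 1120 and 845 to 879. At 8 endothelial markers, with no region at Cldn5, it was 588 to 619 and 500.4 to 522. At 15 T and NK cell markers it was 234 to 248 and 195 to 222, at 10 oligodendrocyte and progenitor markers 400.3 to 416 and 339 to 364, at 8 neuron markers 103 to 123 and 95.6 to 100.1, at 8 astrocyte markers 165 to 180.5 and 182 to 195, and at 8 B cell markers 246 to 254 and 273 to 307. None of these 10 sums overlaps between MDM and LL-MDM, 7 being lower and 3 higher in LL-MDM. Their part in the differences was not tested.

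Within the gene lists, regions in a span or within 5 kb of it were counted, and the lists were chosen with earlier results known. No list had a region of the set at all of its genes. Over all tested regions 14.1% were called lower in LL-MDM and 15.4% higher, and most lists hold too few regions for a share to be read against these. Of 9 tested regions at 7 of the 20 antigen presentation genes, 3 fell in LL-MDM and 0 rose, by edgeR and also at an unadjusted p under 0.05, with a median log2 difference of -0.37 against 0.01 over all regions. The Cd40 region, in a costimulatory receptor gene, fell from 17.3, 18.2 and 19.8 CPM to 11.0, 12.6 and 7.85 (adjusted p = 0.0131), and H2-DMb2 gave 10.2, 12.2 and 12.7 against 11.0, 7.45 and 8.50 CPM, which did not pass (adjusted p = 0.13). At the dendritic cell markers, 2 of 4 regions fell and 0 rose, the same at an unadjusted p under 0.05, with a median of -0.54. A further region, 16091 bp from Ccr7, the gene of a chemokine receptor that guides cells to lymph nodes, fell from 14.5, 14.2 and 18 to 8.46, 4.12 and 2.62 CPM (adjusted p = 2.33e-06). In Flt3, a growth factor receptor of dendritic cell precursors, it fell from 8.87, 7.79 and 8.99 to 3.39, 4.92 and 4.58 CPM (adjusted p = 0.0149). At endothelial markers 3 of 4 tested regions fell, with a median of -1.48: Vwf, the gene of a clotting factor carrier, went from 15.6, 15.4 and 11.8 to 3.39, 3.19 and 5.23 CPM, Erg was 3.21-fold lower and Pecam1, which leukocytes also express, 2.42-fold lower.

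The lists of lipid handling are read against the same shares of all tested regions, 15.4% higher and 14.1% lower. Of 12 tested regions at 7 of 16 cholesterol efflux and liver X receptor genes, 4 rose and 0 fell in LL-MDM (5 and 1 at an unadjusted p under 0.05), with a median log2 difference of 0.46. A region in Abca1, the cholesterol exporter (chr4:53122419-53122578), had 6.98, 6.54 and 7.02 CPM in MDM and 16.1, 17.7 and 15.0 in LL-MDM (2.41-fold, adjusted p = 9.73e-06), and 6.88 to 8.86 in MG and 8.65 to 11.8 in LL-MG. A region in Apoc2, a lipoprotein gene of the Apoe cluster, rose from 3.28, 2.80 and 2.45 to 7.62, 6.39 and 6.21 CPM (adjusted p = 0.00193). Of 20 genes of lipid-associated macrophages only 3 had a region of the set, Cd63, Gpnmb and Lgals1. There 4 of 5 tested regions rose and 0 fell, the same at an unadjusted p under 0.05, with a median of 0.71. The promoter of Cd63, a tetraspanin of lysosomes and exosomes, went from 9.70, 8.52 and 9.48 to 11.0, 15.2 and 15.7 CPM (adjusted p = 0.0122), and Lgals1, galectin-1, from 10.3, 8.36 and 10.1 to 12.7, 14.8 and 18.3 (adjusted p = 0.00709).

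Gpnmb, a transmembrane glycoprotein that marks lipid-associated macrophages, had 4 regions, all called higher in LL-MDM. The call of the one from 49026657 is the least stable of these: it had 2.51, 1.77 and 2.94 CPM in MDM and 1.69, 4.52 and 4.91 in LL-MDM, so the groups overlap, and its adjusted p of 0.0407 rose above the threshold in 11 alternatives, with 0.299 in DESeq2 and 0.343 without MDM 2. The widest (chr6:49031224-49031526) had 5.45, 5.97 and 5.06 CPM in MDM and 9.31, 10.9 and 14.1 in LL-MDM, against 0.933 to 1.77 in MG and 1.39 to 1.80 in LL-MG (log2 1.07, SE 0.23, adjusted p = 0.00049). The region inside the gene had 2.51, 2.96 and 3.92 CPM in MDM and 12.7, 4.92 and 6.87 in LL-MDM (adjusted p = 0.00324). Pla2g7, which encodes a phospholipase that cleaves oxidised lipids, had its promoter at 10.1, 10.4 and 9.31 CPM in MDM and 16.9, 18.6 and 15.7 in LL-MDM (log2 0.79, SE 0.20, adjusted p = 0.00295). At 20 lipid uptake and storage genes 1 of 7 tested regions rose and 0 fell, the same at an unadjusted p under 0.05, with a median of 0.39. That region lies in Msr1, a scavenger receptor gene, with 1.26, 1.04 and 1.47 CPM in MDM and 4.23, 2.93 and 4.58 in LL-MDM (adjusted p = 0.00128). The scavenger receptor gene Cd36 gave 10.7, 10.6 and 10.6 CPM against 13.5, 13.6 and 14.7, which did not pass (adjusted p = 0.218), with 0 to 3.12 CPM in microglia. Pparg, a lipid sensor, gave 18.5, 18 and 15.8 against 6.77, 14.2 and 14.4 CPM (adjusted p = 0.1). At 17 lysosome and autophagy genes 0 of 4 tested regions were called by edgeR, and 0 at an unadjusted p under 0.05.

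At 22 matrix remodelling and angiogenesis genes, 6 of 27 tested regions rose and 5 fell. The region of Mmp2, a gelatinase gene, rose 1.99-fold, and the Mmp9 region and the Adam19 promoter fell 1.65-fold and 1.59-fold. Adam19 had 14.5, 16.5 and 16.0 CPM in MDM and 9.31, 9.58 and 10.5 in LL-MDM (adjusted p = 0.0124). At 24 integrin and adhesion genes 5 of 20 rose and 3 fell. The Selplg region, near the gene of the P-selectin ligand, fell from 20.9, 18.6 and 21.6 to 6.77, 4.12 and 4.91 CPM (log2 -2.09, SE 0.23, adjusted p = 4.6e-08). At 36 macrophage transcription factor genes 3 of 15 rose, at Bach2 and Runx1, and 1 fell, at Runx2. Outside the lists, the Sbno2 promoter rose from 6.00, 8.72 and 8.99 to 11.0, 13 and 18 CPM (adjusted p = 0.00715).

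At 18 interferon response genes 2 of 8 tested regions fell and 0 rose (2 and 1 at an unadjusted p under 0.05). 1 of the lower regions lies at Irf1, an interferon-induced transcription factor gene. A further region, 27432 bp from Irf1, gave 12.5, 13.4 and 14.5 against 13.5, 13.8 and 14.1 CPM and was not called. At 24 chemokine and receptor genes 2 of 6 fell, at Ccl4 and Ccr7, and 0 rose, the same at an unadjusted p under 0.05. At 20 NF-kB and inflammatory genes 1 of 5 rose, in Tnfaip2, from 7.26, 8.72 and 10.3 to 14.4, 12.9 and 15.4 CPM (adjusted p = 0.00938), and 0 fell. At 18 immunosuppression and repair genes 5 of 15 rose and 3 fell, and in Mrc1, a mannose receptor gene, regions went both ways. At the PPAR and fatty acid oxidation genes 1 of 5 rose and 1 fell, and likewise at the hypoxia and glycolysis genes, where the region of Epas1, a hypoxia-inducible factor gene, fell 3.62-fold (adjusted p = 3.18e-05).

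The identity and cell marker lists held few of these regions. At monocyte-derived identity genes 1 of 6 tested rose and 1 fell. The riser is the S100a8 promoter, which went from 1.75, 2.08 and 1.31 to 4.23, 3.06 and 6.87 CPM (adjusted p = 0.00511). S100a8 is also a neutrophil marker, and at neutrophil markers 1 of 3 rose and 0 fell. Over all regions at the 9 neutrophil markers, of which Ly6g, Ngp and Camp had none, the summed CPM was 137 to 146 in MDM and 129 to 159.9 in LL-MDM, which overlap. At microglia identity genes 2 of 8 rose and 1 fell. The riser in Mertk, a receptor for apoptotic cells, went from 2.37, 2.86 and 2.29 to 6.77, 5.85 and 7.85 CPM (adjusted p = 0.000537). At border-associated macrophage markers 2 of 6 rose and 2 fell, at mast cell and basophil markers both tested regions, in Kit, fell, at oligodendrocyte markers 1 of 3 rose and at astrocyte markers 1 of 4 rose and 1 fell. At T and NK cell markers 0 of 2 and at neuron markers 0 of 2 were called by edgeR or at an unadjusted p under 0.05, and no region of the set lies at the 8 B cell markers.

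Of 196 genes with at least 2 called regions, 61 had only rises, 74 only falls and 61 both, counts that were not set against other regions. All 5 regions of Mtmr7, a phosphoinositide phosphatase gene, rose, and so did 4 of 5 at Galnt2 and 4 of 4 at Mapre2. All 4 at Lrrk2 fell, the one inside the gene from 26.7, 25.8 and 31.5 to 16.9, 17.4 and 19.6 CPM (adjusted p = 0.00761), and at Vav3 4 of 10 fell and 0 rose. Pde4d had 6 falls and 2 rises among its 15 regions.

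In microglia, where none of these regions had been called a peak, 224 of the 5509 (4.07%) differed between LL-MG and MG, against 12.2% of all tested regions. Higher in LL-MG were 90 (1.63%, against 4.22% of all) and lower 134 (2.43%, against 8.01%). The rule keeps out regions high enough for a call in either microglia group, and nothing is read from the lower share. The 7304 regions held 1.67%, 1.51% and 1.59% of counts in MG and 1.75%, 1.76% and 1.92% in LL-MG. These do not overlap, and the difference of 0.222 percentage points had the smallest p that 3 against 3 libraries can give (exact two-sided permutation test, p = 0.1).

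The count of called regions depended on the libraries and on the fit here too. Shares called over all tested regions are again in brackets. Without MG 2 the calls were 41 (4.07%) and without MG 1 651 (24.3%). Without LL-MG 1, LL-MG 2 or LL-MG 3 they were 81 (4.2%), 91 (4.52%) and 75 (4.65%). Without MG 2 and MG 3 together 0 were called by edgeR's quasi-likelihood test (376 at an unadjusted p under 0.05), where 0.0524% of all regions were. DESeq2 called 103 (8.1%) and limma-voom 94 (7.94%), and a fit of the 2 groups alone called 14 of 1286 tested (3.51%). Thinned to the smallest total, 0 were called by edgeR (0.00267%) and 46 had an unadjusted p under 0.05. The split of 90 higher and 134 lower became 152 and 108 with library totals alone, a scaling that moved the median log2 difference of all regions from 0.00 to 0.12. It became 62 and 32 with limma-voom.

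Of the 134 regions lower in LL-MG, 103 had their highest MG level in MG 2 and 109 their lowest in MG 1, with medians of 1.42, 4.18 and 2.57 CPM in MG 1 to 3 and 0.432 to 0.694 in LL-MG. The summed CPM at mast cell and basophil markers was 163 in MG 1, 577 in MG 2 and 349 in MG 3, against 121 to 142 in LL-MG. At T and NK cell markers, with no region at Trac, Ncr1 or Gzma themselves, it was 221, 402 and 288 against 178 to 207. The sum at monocyte-derived identity genes had the same order, with 533, 749 and 644 against 534 to 559. At microglia identity genes the order was the opposite, with 2053, 1556 and 1790 against 1970 to 2119. The part of any of these cell types in the lower regions was not tested. The 90 higher regions did not follow the order of the 134 lower ones. Their medians were 2.83, 2.13 and 2.57 CPM in MG 1 to 3 and 5.62 to 5.90 in LL-MG.

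**Figure D5:**
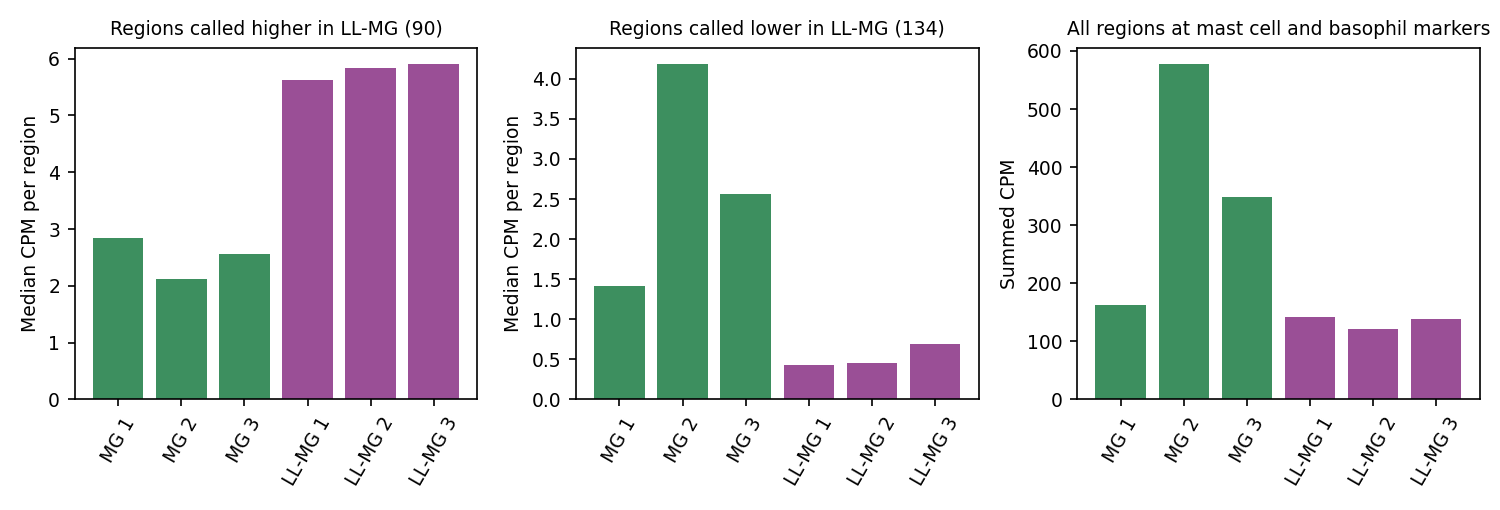
Median CPM per region over the 90 regions called higher (left) and the 134 called lower (middle) in LL-MG, and summed CPM over all regions at mast cell and basophil markers (right), in each microglia library. In the lower set MG 2 stands at 4.18 CPM and MG 1 at 1.42, and the marker sum is 577 in MG 2 and 163 in MG 1. Not drawn are the sums at monocyte-derived identity genes, 749 in MG 2 and 533 in MG 1, and at microglia identity genes, 1556 and 2053.

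Among the regions higher in LL-MG, 1 lies in Tnfrsf1b, the gene of a tumour necrosis factor receptor (chr4:145221517-145221784). It had 3.90, 2.95 and 4.2 CPM in MG and 10.4, 11.2 and 13.2 in LL-MG (3.24-fold, adjusted p = 0.000663), while MDM had 14.7 to 16.0 and LL-MDM 11.8 to 16.9. A region in Slc39a14, a zinc and iron transporter gene, rose from 2.13, 2.62 and 2.33 to 10.4, 6.29 and 8.32 CPM (3.44-fold, adjusted p = 0.00103), and 1 in Lrrfip1 from 6.73, 4.91 and 4.90 to 13, 11.7 and 15.6 (2.52-fold). The region 23871 bp from Socs3, a brake on cytokine signals, rose from 4.96, 2.78 and 7.46 to 12.1, 16.2 and 11.8 CPM (2.71-fold), and the region 2403 bp from the anti-inflammatory cytokine gene Il10 from 2.13, 2.13 and 2.33 to 5.19, 7.19 and 3.82 (adjusted p = 0.0143). In these 5 regions the LL-MG libraries lie above the MG libraries. Over both MDM groups the Il10 region had 10.7 to 13.7 CPM.

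Lower in LL-MG was a region in Smap1, with 2.48, 8.85 and 3.96 CPM in MG and 0.865, 0.449 and 1.04 in LL-MG (adjusted p = 0.00186). The Sgms2 region, in a sphingomyelin synthase gene, had 0.709, 4.26 and 2.33 CPM in MG and 0, 0.449 and 0 in LL-MG (adjusted p = 0.00396). A region in the span of Mbp, which encodes myelin basic protein (chr18:82522766-82522984), had 11.3, 10.6 and 12.1 CPM in MDM, 12.7, 11.8 and 8.83 in LL-MDM, 1.06, 7.70 and 3.96 in MG and 0, 0.449 and 0.694 in LL-MG (adjusted p = 0.00432 in microglia). In each of these 3 regions MG 2 is highest and MG 1 lowest of MG.

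The difference of differences between the lineages was tested with an interaction term, the LL-MG minus MG difference less the LL-MDM minus MDM difference. It was called in 425 regions (7.71%, against 10.9% of all tested regions), 268 with a positive sign (4.86%, against 4.56%) and 157 with a negative one (2.85%, against 6.34%). Of the 268, 224 were also called lower in LL-MDM than in MDM and 30 higher in LL-MG than in MG. Of the 157, 95 were called higher in LL-MDM and 55 lower in LL-MG. Many of these calls thus come with a called change in 1 lineage only. The scaling moves this split: on the regions named in all 4 groups it was 317 and 102, where the median of all regions went from -0.13 to -0.00 on the log2 scale. Without MG 1 the count was 773, with 19.4% of all tested regions called. It was 280 (7.21% of all), 274 (7.23%), 195 (5.19%) and 271 (5.61%) without MDM 1, MDM 2, LL-MDM 2 and LL-MDM 3. It was 230 (5.7%), 257 (5.8%) and 224 (5.23%) without LL-MG 1, LL-MG 2 and LL-MG 3. Without MG 2 and MG 3, which leaves 1 MG library, the median interaction was 0.12 on the log2 scale (-0.05 over all).

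Regions with a positive interaction are given first. In Grk3, a receptor kinase gene (chr5:112951422-112951972), the level went from 33.9, 29.1 and 31.5 CPM in MDM to 12.7, 8.25 and 6.21 in LL-MDM, and from 6.38, 3.93 and 3.26 in MG to 8.22, 9.44 and 5.2 in LL-MG (interaction 2.72, SE 0.38, adjusted p = 3.72e-05). At H2-Aa the interaction was 3.42 (SE 0.52, adjusted p = 8.42e-05), and the microglia difference by itself did not pass (adjusted p = 0.192). Near Prex1, an exchange factor for Rac, the MDM groups had 20.0, 23.5 and 29.2 against 9.31, 7.58 and 6.87 CPM and the microglia 2.48, 2.78 and 2.57 against 3.03, 4.94 and 5.90 (interaction 2.48, adjusted p = 0.000275).

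On the negative side, a region 4349 bp from Cxcl1, a neutrophil chemokine gene (chr5:90897470-90897701), rose from 6.49, 7.37 and 9.64 CPM in MDM to 12.7, 14.9 and 18 in LL-MDM. In microglia it fell from 1.42, 6.72 and 3.96 to 0.865, 0.899 and 0.694 CPM (interaction -3.46, SE 0.59, adjusted p = 0.000362). A region in Hrh4, the histamine H4 receptor gene, rose from 1.75, 1.87 and 1.14 to 5.08, 5.19 and 4.58 CPM in MDM and fell from 1.42, 3.44 and 3.5 to 0.865, 0.449 and 1.04 in microglia (interaction -3.41, adjusted p = 0.000635). A region on chromosome 8, 141539 bp from the nearest gene (chr8:126735525-126736120), rose from 8.73, 9.09 and 9.97 to 26.2, 21.4 and 21.3 CPM in MDM and had 2.48, 4.10 and 2.57 against 0.865, 2.25 and 1.04 in microglia (interaction -2.51, adjusted p = 0.000827). At Cxcl1 and Hrh4 the MG level is higher in MG 2 and MG 3, the libraries with the higher mast cell and basophil sums, than in MG 1. MG 2 and MG 3 also had higher sums than MG 1 at T and NK cell markers and monocyte-derived identity genes. Their sums at microglia identity genes were lower. The part of any of these cell types was not tested.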

How the data were processed

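ATAC-seq libraries of 12 mouse samples, 3 in each of 4 groups, were analysed from a deposited table of counts, whole numbers of reads per merged region that the authors had not normalized. Per the labels' protocols, nuclei of sorted cells were tagged with in-house Tn5, amplified in 2 rounds of 9 cycles and size-selected to 150 to 700 bp. The submitters' processing notes name mm10, deepTools 3.5.1, Picard 2.12.0, SAMtools 1.10 and BWA 0.7.17-r1188, in no order. Not given in the sources used here are the peak caller, duplicate removal, the Tn5 shift and whether region starts count from 0 or 1. PCR duplicates that remain would make counting error look smaller than it is.

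Groups came from the sample descriptions, which equal the column names. All 117835 regions were fitted in 1 model with edgeR 4.0.16 (R 4.3.3): filterByExpr, TMM scaling, robust quasi-likelihood test, Benjamini-Hochberg adjustment over 77737 tested regions, threshold 0.05. CPM use TMM-scaled totals. The rule used the contrasts between lineages, which are described without a test. Members and the 26 gene lists were chosen with earlier results of these data known. A region was named for the protein-coding span it overlaps or the nearest within 50 kb. Regions named are the 12 most open, up to 8 per direction for LL-MDM by smallest p with at least 2-fold change and no overlap of the 3 and 3 libraries, 4 per direction for LL-MG and the interaction by smallest p with at least 2-fold change, the 10 genes with most regions, the 3 most open per list, and the 4 highest and 4 lowest by lineage ratio. The regions of Mefv, F10, Pla2g7, Sbno2, Gpnmb, Apoc2, Msr1, Mertk and Lrrk2, the examples Mtmr7, Galnt2 and Zfhx3, and the sequences shown were chosen after their values were seen. 1 region that the naming rule selects is not reported here. Promoter sequences are from RefSeq (GRCm38.p6).

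Alternatives were other scalings, DESeq2 1.42.0, limma-voom (limma 3.58.1), no filter, thinned libraries, groups from the titles, fits of 2 groups, each library left out and, added after seeing the data, MG 2 and MG 3 left out together and fits with a block. On simulated counts for LL-MDM against MDM over 71591 regions, 98% of 4-fold rises, 72% of 4-fold falls, 60% of 2-fold rises and 28% of 2-fold falls were recovered. These shares are of all regions changed, also those that the low-count filter removed. In the same order, 49, 45, 49 and 43 changed regions were tested. Among unchanged regions 11 were called. The simulation changed few regions and otherwise gave all groups the same pooled means. In the data 29.5% of all tested regions were called between LL-MDM and MDM. The shares recovered can therefore differ from those in the data.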

Additional observations from a re-analysis of the deposited data

Results flagged for a closer look

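In 425 of the 5509 tested regions the lipid-load difference differed between the lineages by the interaction term (edgeR quasi-likelihood test, adjusted p under 0.05), and 32 of them are among the named regions given here. A positive value means that LL-MG minus MG exceeds LL-MDM minus MDM on the log2 scale. It does not by itself mean that the lineages changed in opposite directions.

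Positive values were found at H2-Aa (3.42), Kit (2.97), Rubcnl (2.94), Grk3 (2.72), Vwf (2.69), Nectin1 (2.61), Mpzl2 (2.50), Prex1 (2.48), the region near Ncr1 (2.35), Selplg (2.12), Slc1a2 (1.97), Tnfrsf1b (1.79), Chd7 (1.71), Lrrfip1 (1.58), Mbnl2 (1.55), Tgfbi (1.55), Pecam1 (1.53), Slc39a14 (1.35) and the distal Socs3 region (1.11).

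Negative values were found at Sgms2 (-4.85), Ofcc1 (-3.80), Mbp (-3.47), Cxcl1 (-3.46), Hrh4 (-3.41), Arhgap15 (-3.21), the chromosome 8 region from 126735525 (-2.51), S100a8 (-2.32), Mapre2 (-2.24), Wee1 (-1.91), Fabp5 (-1.32), Sash1 (-1.25) and Birc6 (-1.01). At Sgms2, Ofcc1, Mbp and Cxcl1 the highest of the 3 MG libraries was MG 2. That library also had the highest MG sums at mast cell and basophil markers, T and NK cell markers and monocyte-derived identity genes. Its sum at microglia identity genes was the lowest of MG. The part of any of these cell types was not tested.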

How the results depend on the processing

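Of 1682 regions called between LL-MDM and MDM, DESeq2 called 1027, a fit of the 2 groups alone 2612 and thinned libraries 0 (135 at an unadjusted p under 0.05). Leaving out 1 library gave 798 (without LL-MDM 2, 15.4% of all tested regions) to 2256 (without MG 1, 33.9% of all). Of all tested regions DESeq2 called 21.1% and the fit of the 2 groups alone 36.6%. Of 224 called between LL-MG and MG, DESeq2 gave 103, limma-voom 94, thinning 0 (46 unadjusted), the 2 groups alone 14, the titles 1878, and leaving out MG 2 and MG 3 together 0, an alternative chosen after seeing the data. Leaving out 1 library gave 41 (without MG 2, 4.07% of all tested regions) to 651 (without MG 1, 24.3% of all). Of all tested regions DESeq2 called 8.1%, limma-voom 7.94%, the 2 groups alone 3.51% and the titles 10.6%. Of 425 called for the interaction, DESeq2 gave 242, thinning 0 (62 unadjusted), the titles 0 (75 unadjusted) and the lack of MG 2 and MG 3 140. Leaving out 1 library gave 195 (without LL-MDM 2, 5.19% of all tested regions) to 773 (without MG 1, 19.4% of all). DESeq2 called 7.45% of all. The fit without MG 2 and MG 3 leaves 1 MG library, so its count is not read against the others. Its median interaction was 0.12 on the log2 scale (-0.05 over all), against 0.02 in the main fit (-0.13 over all). Other scalings and no filter stayed within 1.5 times each count. For the interaction 63.1% were positive in the main scaling and 72.3% with library totals, 70.6% with RLE factors and 75.7% with factors from regions named in all 4 groups. The cause of these changes was not tested, except that thinning left 1359 regions to test. The share difference for LL-MDM was -0.116 to -0.316 with 1 library left out and that for LL-MG 0.167 to 0.264.

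The titles put libraries that the columns name MG or LL-MG against libraries named MDM or LL-MDM in both lipid comparisons, so their values follow the lineage difference. With them 2260 regions were called between LL-MDM and MDM, 3 of them higher, where 17.7% of all tested regions were called. The share difference was -2.01 points for LL-MDM and -2.03 points for LL-MG. For LL-MDM against MDM the log2 differences turned at Ehd1 (-1.68), Birc6 (-2.26), Arhgap15 (-3.48), Serpina12 (-2.51), Sash1 (-0.55), Itga9 (-3.38), Gdpd1 (-0.50), Ahr (-2.78), Csf1r (-1.28), Ccr1 (-1.27), Il10 (-1.72), Mmp2 (-0.46), Cd36 (-2.56), Abca1 (-0.26), Lgals1 (-0.99), Cd63 (-0.19), Mitf (-1.57), Tnfaip2 (-1.18), Irf1 (-2.11), Cebpb (-1.09), S100a8 (-0.13), Sp3 (-4.42), Mefv (-3.92), F10 (-2.66), Pla2g7 (-1.74), Sbno2 (-1.08), Gpnmb (-0.35, -1.74, -2.30 and -0.68), Apoc2 (-0.67) and Msr1 (-0.10). For LL-MG against MG they turned at Tnfrsf1b (-0.78), Slc39a14 (-0.32), Lrrfip1 (-0.81) and Socs3 (-0.88), and for the interaction at Cxcl1 (0.23) and Ofcc1 (0.28). In thinned libraries Ccl4 (0.64), Socs3 (-0.46) and Cd63 (-0.018) turned, none past the threshold. Sign changes of regions that passed under neither setting are not counted. Of 127 results for named regions, which include regions not called in the main fit, DESeq2 lost 6 calls and leaving out LL-MDM 3 lost 15. Fewer results could be tested without LL-MDM 2, where 11 calls were lost, and in thinned libraries. After thinning 48 lost their call with the same sign, 3 turned and 30 were uncalled in both fits, so that no call remained.

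No label says that a number pairs libraries as the columns name them. With the 3 sets of 4 consecutive column numbers as a replicate block, also chosen after seeing the data, 1578, 196 and 353 regions were called for LL-MDM, LL-MG and the interaction. Over all tested regions the shares called were 28.4%, 11.2% and 9.78%. With this block 2 of 127 results for named regions lost their call, Gpnmb from 49026657 and Phospho1. Deviations from the group means correlated at -0.07 to 0.09 over 18 pairs of libraries in 1 set and at -0.09 to 0.08 over 36 other pairs, and 9 of 12 libraries correlated best within their own set. With the titles' groups and their mouse numbers as a block, 2529, 2181 and 0 regions were called (93 unadjusted for the interaction). The shares of all tested regions were 23.8%, 15.3% and 0%. The smallest library, LL-MDM 1 with 1162969 counts, limits what can be seen in regions near 1 CPM, and 1795 of 7304 regions were not tested.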
